A study of Mus musculus with 15 samples.

Results

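Macrophages that had been loaded with fatty acid and then given LPS (FA+LPS) were compared with macrophages that received neither (Unstim). The comparison used the 7 arrays of the 15 in the series whose titles name these groups: 4 FA+LPS arrays, from experiments 1, 2, 3 and 4, and 3 Unstim arrays, from experiments 1, 3 and 4. The cells were mouse peritoneal macrophages elicited with thioglycollate, an irritant broth that draws monocytes into the abdominal cavity, and left to adhere to plastic. The culture medium of all groups held 5.5 mM glucose and 0.5% serum. FA+LPS cells were fatty acid-loaded and then received LPS, the endotoxin of Gram-negative bacteria, at 10 ng/ml for 24 h. Unstim cells were not loaded and received vehicle for the same 24 h. The sources used here do not name the fatty acid, the way it was loaded, or the mouse strain, age and sex. The remaining groups, LPS without fatty acid (LPS, 4 arrays) and fatty acid with vehicle (FA, 4 arrays), entered the fit and are cited where they place a gene between its neighbours. RNA was measured on Illumina mouse bead arrays, and a gene's level is its log2 signal after background correction and quantile normalization. A difference is the mean FA+LPS level minus the mean Unstim level, given with its standard error.

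LPS is sensed by TLR4 with CD14 and MD-2, and signals through the adaptors MyD88 and TRAM/TRIF. These routes switch on NF-kB target genes, among them cytokines and chemokines, and an interferon loop that raises antiviral genes. Fatty acids taken up by a macrophage are activated to acyl-CoA, esterified to triglyceride and stored in lipid droplets coated by perilipins. The droplets are emptied by neutral lipases in the cytosol and by acid lipase in the lysosome.

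On the 15 arrays, between 16756 and 19973 probes were above background. The lowest number came from FA replicate 1, whose 95th percentile of log2 signal was 7.77, against 8.53 to 9.57 on the other arrays. The 7 FA+LPS and Unstim arrays had 18945 to 19973 probes above background. FA+LPS arrays correlated with each other at 0.972 to 0.985 over genes, and Unstim arrays at 0.991 to 0.993. Arrays lay on 3 slides, and slide 2 held no Unstim array. Of the genes called below, 2365 of 2376 had the same sign within slide 1 and 2376 within slide 3. The calls used these same arrays, so the agreement follows largely from the selection and does not test the part of slide. Replicates came from separate experiments, and p-values measure the spread between these arrays. In bulk RNA of this kind, fewer cells of a type and less RNA per cell cannot be told apart.

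The combined treatment changed 2376 of 12984 genes, which is 18.3% of those tested (limma, Benjamini-Hochberg adjusted p under 0.05). Of these, 981 were higher (7.56%) and 1395 lower (10.7%), so that 41.3% of the calls were rises. The rises were larger than the falls. At least 4-fold changes numbered 133 upward and 43 downward, and at least 16-fold changes 31 upward and 1 downward. The median difference was 0.73 among genes called higher and -0.65 among genes called lower, against -0.01 over all genes. In experiments 1, 3 and 4 taken as pairs, 975 of the 981 higher genes were higher in every pair. Of the 1395 lower genes, 1382 were lower in every pair. The pairs are made of arrays that gave the calls, so these counts are a description and not separate support. When arrays were instead scaled to a common median, 764 genes passed, 493 higher and 271 lower, and 64.5% of the calls were rises. The balance of rises and falls therefore differed with the scaling, while 2354 of the 2376 genes kept their sign.

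**Figure D1:**
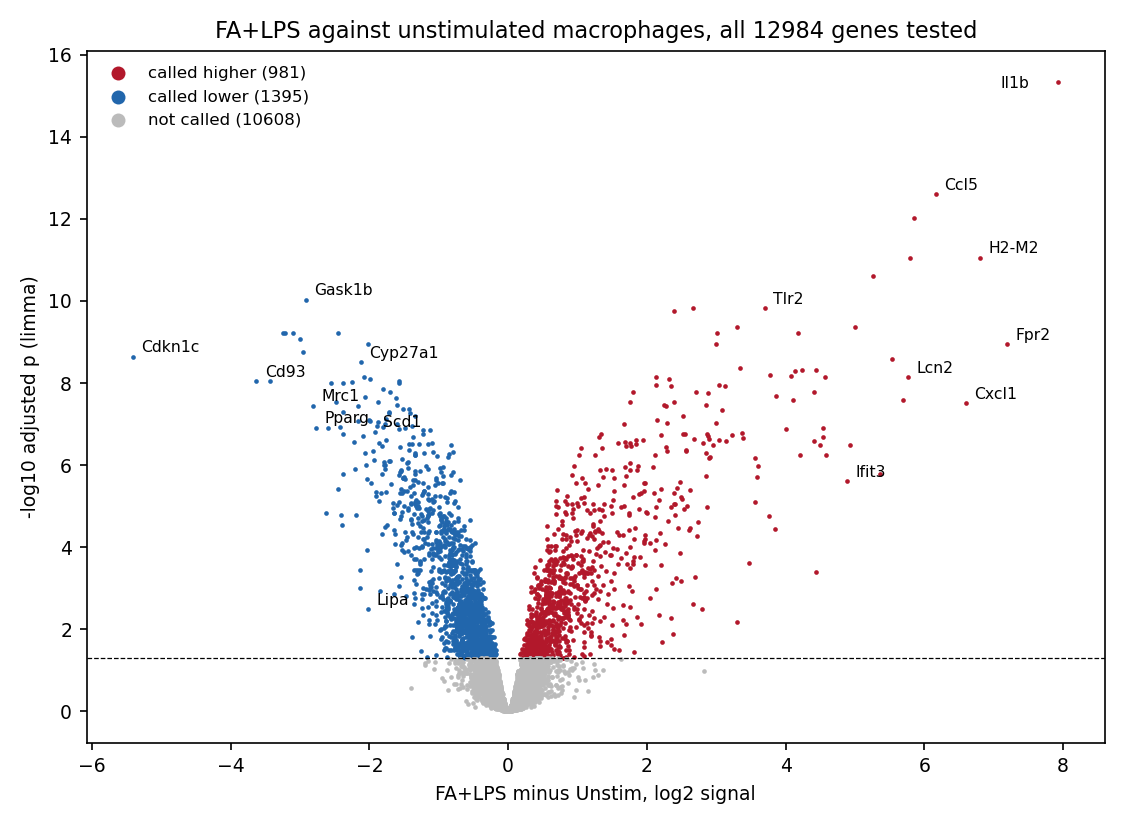
Each point is 1 of the 12984 genes tested. The horizontal axis is the FA+LPS minus Unstim difference in log2 signal, the vertical axis is -log10 of limma's adjusted p, and the dashed line is the 0.05 threshold. The right arm reaches 7.94 for Il1b and the left arm -5.41 for Cdkn1c, with 981 genes called higher and 1395 called lower.

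Several promoters show the sequence motifs that the best-known regulators of these genes bind, and they are given here because their genes are described below. The stretches come from RefSeq's mouse promoter table (GRCm38.p6), which runs from 250 bases before to 50 bases after each annotated start. They are written 5′ to 3′ on the gene's own strand, with every match in capitals, searched on both strands. Cxcl1, Cxcl2 and Nfkbia show the NF-kB-type motif, which is GGG and TTCC with any 3 bases between them, and the 3 matches in each chemokine partly overlap.
Cxcl1: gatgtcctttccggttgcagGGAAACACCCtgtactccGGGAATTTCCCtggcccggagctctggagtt
Cxcl2: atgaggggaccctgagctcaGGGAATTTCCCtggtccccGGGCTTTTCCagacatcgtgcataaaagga
Nfkbia: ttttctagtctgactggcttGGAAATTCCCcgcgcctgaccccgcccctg
Ifit3 and Isg15 show the ISRE-type motif, GAAA and GAAA with any 2 bases between them, the kind bound by interferon-activated factors. The 3 matches in Isg15 overlap.
Ifit3: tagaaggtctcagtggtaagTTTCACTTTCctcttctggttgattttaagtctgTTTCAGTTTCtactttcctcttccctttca
Isg15: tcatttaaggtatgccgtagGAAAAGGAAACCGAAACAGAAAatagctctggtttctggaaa
Trib3 and Asns show the ATF4-type motif TGATGNAA, which ATF4 binds with its partner C/EBP proteins.
Trib3: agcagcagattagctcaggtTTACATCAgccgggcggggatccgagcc
Asns: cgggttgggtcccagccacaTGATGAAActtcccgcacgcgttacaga
These stretches lie at chr5:90891136-90891204 (+ strand, Cxcl1) and chr5:90903782-90903850 (+ strand, Cxcl2), at chr12:55492647-55492696 (- strand, Nfkbia), at chr19:34583353-34583436 (+ strand, Ifit3) and chr4:156200855-156200916 (- strand, Isg15), and at chr2:152344019-152344066 (- strand, Trib3) and chr6:7693205-7693252 (- strand, Asns). An NF-kB-type match was present in 6.30% of the 27025 genes with a promoter in the table, in 6.88% of genes tested here, in 9.76% of genes called higher, in 8.59% of genes called lower and in 19.2% of the 26 genes at least 16-fold higher with a promoter. An ISRE-type match was present in 3.99% of all genes, 3.83% of genes tested here, 8.87% of genes called higher, 3.13% of genes called lower and 13 of the 25 interferon-stimulated genes with a promoter. In the 26 genes at least 16-fold higher its share was also 19.2%, the same as that of the NF-kB-type motif. An NF-kB-type match was present in 6 of the 25 interferon-stimulated genes. An ATF4-type match was present in 4.51% of all genes, 3.14% of genes tested here, 3.68% of genes called higher, 3.13% of genes called lower and 9 of the 26 stress-response genes with a promoter. The promoters shown are examples that hold a match. Other genes described below held none, among them Il1b, Il1a, Tnf and Acod1 for the NF-kB-type motif and Irf7 for the ISRE-type motif. A match describes letters in this window and not a bound site.

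Il1b, which encodes interleukin-1 beta, showed the largest rise. It had log2 signals of 13.99, 13.81, 14.01 and 14.17 on the FA+LPS arrays, against 5.89, 6.00 and 6.30 on the Unstim arrays. Every FA+LPS array was near the upper end of the scale, while only 1 of the 3 Unstim arrays was above background. The difference was 7.94 ± 0.10 (adjusted p = 4.68e-16). Cxcl1, a chemokine that attracts neutrophils, had 11.89, 13.30, 13.53 and 13.76 on the FA+LPS arrays, against 6.30, 6.63 and 6.65 on the Unstim arrays. Replicate 1 was the lowest of the FA+LPS arrays, and still lay far above every Unstim array, with a difference of 6.60 ± 0.41 (adjusted p = 3.06e-08). Its neighbour Cxcl2 differed by 5.80 ± 0.17. Ccl5, which attracts T cells and monocytes, had 12.53, 12.50, 12.63 and 13.11 on the FA+LPS arrays, against 6.51, 6.53 and 6.52 on the Unstim arrays. Neither group varied much, and the difference was 6.17 ± 0.13 (adjusted p = 2.54e-13).

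Of 15 tested chemokines, 10 rose and none fell, with a median difference of 2.83. Ccl7 and Ccl2, the monocyte-attracting chemokines, were higher by 5.36 ± 0.49 and 4.54 ± 0.34. Their FA+LPS arrays were spread, with Ccl7 at 10.37 to 13.00 and Ccl2 at 10.16 to 11.95. Cxcl10, an interferon-inducible chemokine, had 6.97, 6.76, 10.32 and 11.33 on the FA+LPS arrays, against 6.02, 6.08 and 5.96 on the Unstim arrays. Replicates 1 and 2 of FA+LPS stood far below replicates 3 and 4, only 1 Unstim array was above background, and the difference of 2.83 ± 1.12 was not called (adjusted p = 0.105). With experiment as a block it was called, at 3.29 (limma, adjusted p = 0.0091), and it was also called without FA+LPS replicate 2 (adjusted p = 0.0432). Among 22 cytokines and growth factors 11 rose and 1 fell, with a median of 0.79. Il1a rose by 5.27 ± 0.16, Inhba, the activin A subunit, by 5.85 ± 0.14, Il12a, a subunit of interleukin-12, by 4.18 ± 0.17 and Tnf by 4.13 ± 0.21. Il6 rose by only 1.07 ± 0.16. The 1 member that fell was Vegfa, an angiogenic factor, at -0.77 ± 0.22, and its call was lost without FA+LPS replicate 1 (adjusted p = 0.0617), FA+LPS replicate 3 (0.065), Unstim replicate 1 (0.108) or Unstim replicate 4 (0.0524), and under median scaling (0.397).

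Of 20 inflammatory enzymes and acute-phase genes, 17 rose and none fell, with a median of 2.70. Acod1, which makes itaconate from a tricarboxylic acid cycle intermediate, had 11.97, 12.38, 12.15 and 12.68 on the FA+LPS arrays, against 6.98, 7.49 and 7.42 on the Unstim arrays. The groups were separated by more than 4 log2 units on every array, with a difference of 5.00 ± 0.20 (adjusted p = 4.4e-10). Lcn2, a lipocalin that binds bacterial siderophores, rose by 5.77 ± 0.31, Hdc, which makes histamine, by 4.93 ± 0.39, Ptges, which makes prostaglandin E2, by 4.41 ± 0.26 and Hp, haptoglobin, by 4.44 ± 0.72. Arg1, arginase, had 8.40, 8.67, 10.54 and 9.83 on the FA+LPS arrays, against 6.43, 6.41 and 6.83 on the Unstim arrays. It rose by 2.80 ± 0.59, with FA+LPS replicates 3 and 4 above replicates 1 and 2. Nos2, which makes nitric oxide from the same arginine, was near background in both groups, and its difference of 0.26 ± 0.25 was not called (95% interval -0.28 to 0.81). Slc7a2, a cationic amino acid transporter that brings arginine into the cell, rose by 5.54 ± 0.27, Fpr2, a formyl peptide receptor, by 7.19 ± 0.32, and Serpinb2, plasminogen activator inhibitor 2, by 5.69 ± 0.35.

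Interferon-stimulated genes rose together, by amounts that varied between experiments. Of 34 tested, 29 rose and none fell, with a median of 2.08. Isg15, a ubiquitin-like antiviral protein, had 10.65, 10.61, 11.48 and 12.13 on the FA+LPS arrays, against 6.49, 6.52 and 6.90 on the Unstim arrays. Every FA+LPS array was above every Unstim array, and FA+LPS replicates 3 and 4 were the highest. The difference was 4.58 ± 0.38 (adjusted p = 5.81e-07). Ifit3, which encodes an antiviral protein that acts with other IFIT proteins on foreign RNA, had 11.21, 9.89, 12.23 and 12.63 on the FA+LPS arrays, against 6.39, 6.59 and 6.81 on the Unstim arrays. Again FA+LPS replicate 2 was the lowest of its group. Ifit3 rose by 4.89 ± 0.46, Irf7, a transcription factor of the interferon loop, by 3.60 ± 0.32, Rsad2, viperin, by 3.85 ± 0.48 and Usp18, which removes ISG15 from proteins, by 3.57 ± 0.30.

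The median of the 34 interferon-stimulated genes, each taken relative to its Unstim mean, was 1.60, 1.19, 2.22 and 2.62 on FA+LPS replicates 1 to 4. On the LPS arrays of the same experiments it was 2.16, 2.13, 2.68 and 2.99. In each experiment the FA+LPS array was below the LPS array, and experiments 3 and 4 were above 1 and 2 in both groups. Guanylate-binding and immunity-related GTPases, which attack the vacuoles of intracellular pathogens, followed the same order. Of 11, 7 rose, with a median of 1.24, led by Gbp2 at 4.07 ± 0.21 and Gbp3 at 4.01 ± 0.29. Igtp and Irgm2, both immunity-related GTPases, rose by 2.42 ± 0.41 and 2.13 ± 0.39. The per-array median of the 11 was 0.98, 0.96, 1.22 and 2.04 on FA+LPS replicates 1 to 4, and 2.03, 2.05, 2.26 and 2.45 on the LPS arrays. No test was made of these medians.

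**Figure D2:**
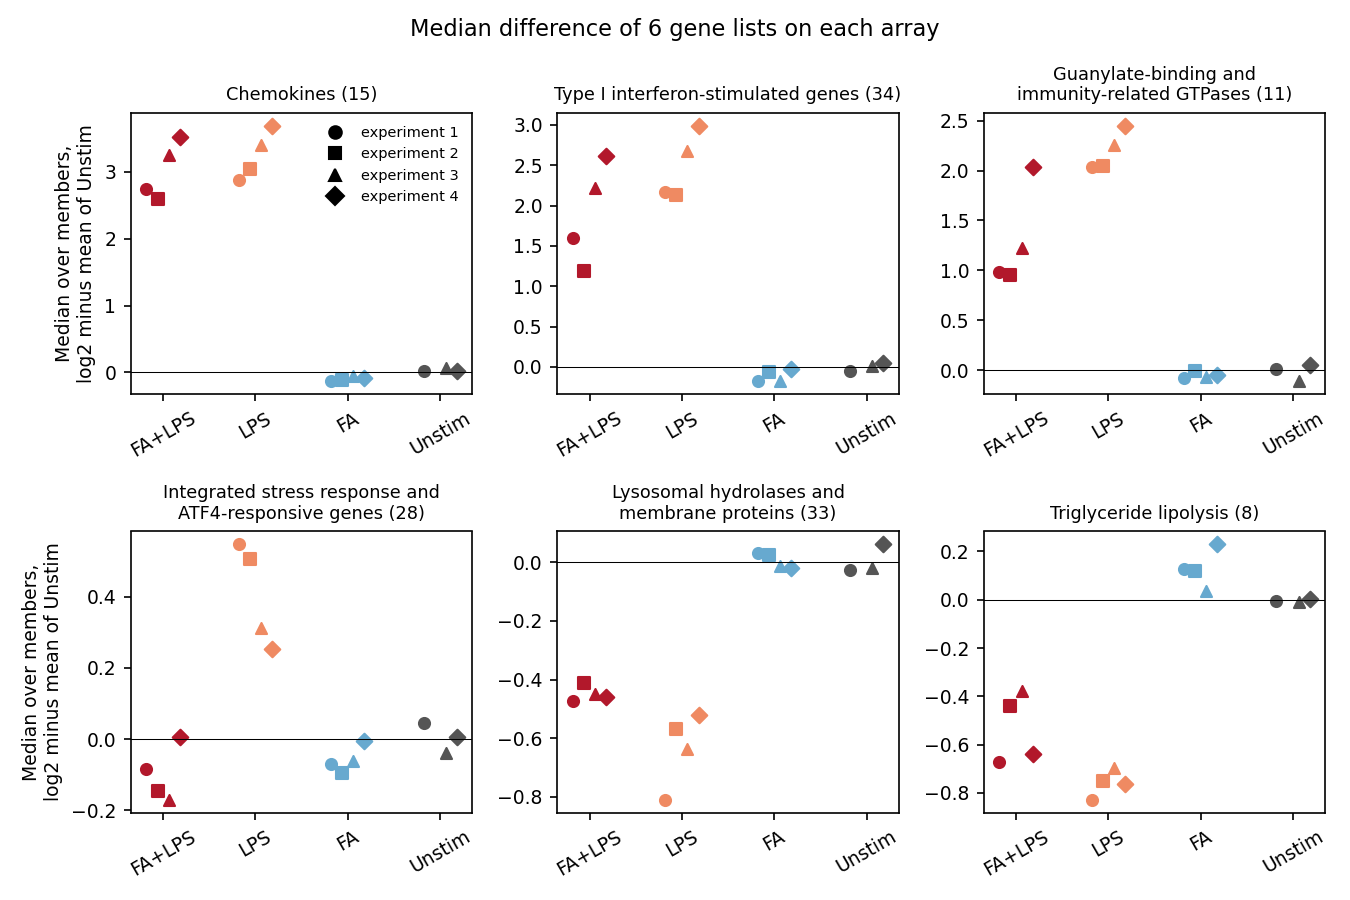
Each symbol is the median over the tested members of a gene list on 1 array, as log2 signal minus the mean of the Unstim arrays. Groups run from FA+LPS on the left to Unstim on the right, and the symbol gives the experiment. The interferon-stimulated genes range from 1.19 to 2.62 on FA+LPS arrays and the lysosomal list from -0.47 to -0.41.

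Among 21 TLR receptors and signalling genes, 6 rose and 2 fell, with a median of 0.14. These counts were 28.6% and 9.52% of the list, against 7.56% higher and 10.7% lower over all genes tested. Tlr2, the receptor for bacterial lipopeptides, had 12.85, 12.25, 12.60 and 12.66 on the FA+LPS arrays, against 8.74, 9.06 and 8.85 on the Unstim arrays. The difference was 3.71 ± 0.13 (adjusted p = 1.48e-10), the largest among the receptors of the list. Cd14, which hands LPS to TLR4, rose by 2.36 ± 0.26. Tlr4 itself averaged 7.78 ± 0.19 in FA+LPS cells (SD, n = 4) and 7.80 ± 0.19 in Unstim cells (SD, n = 3), and its difference of -0.03 ± 0.15 was not called (95% interval -0.34 to 0.29). Ticam2, which encodes the TRAM adaptor, fell by 0.66 ± 0.14. The count of falls was 1 without Unstim replicate 3, which ended the call of Tlr13, and the count of rises was 4 without FA+LPS replicate 3 or 4 or Unstim replicate 1 or 3. Under median scaling 2 members rose, Tlr2 and Cd14 among them, and none fell.

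Genes that restrain the response rose as well. Of 20 feedback inhibitors, 13 rose and 1 fell, with a median of 1.37. Nfkbia, which encodes the NF-kB inhibitor IkB-alpha, had 10.77, 11.04, 11.30 and 10.76 on the FA+LPS arrays, against 7.88, 8.02 and 7.87 on the Unstim arrays. No FA+LPS array came near an Unstim array, and the difference was 3.04 ± 0.17 (adjusted p = 1.14e-08). Socs3 and Cish, suppressors of cytokine receptor signalling, rose by 4.55 ± 0.32 and 3.59 ± 0.33, and Irak3, a brake on TLR signalling, by 2.52 ± 0.17. Cish was above background on 1 of the 3 Unstim arrays. Dusp2, a MAP kinase phosphatase, was the 1 member that fell, at -0.94 ± 0.09.

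Of 26 antigen presentation genes, 16 rose and 1 fell, with a median of 1.10, and under median scaling 10 rose and none fell. H2-M2, a non-classical class I molecule, had 13.64, 13.15, 13.36 and 13.59 on the FA+LPS arrays, against 6.79, 6.48 and 6.64 on the Unstim arrays. It was the third largest rise on the arrays at 6.80 ± 0.19 (adjusted p = 8.82e-12). The class II genes did not move together. H2-Ab1 rose by 1.98 ± 0.31, and H2-Eb1 fell by 0.80 ± 0.18, a call that was lost under median scaling (adjusted p = 0.346). Cd274, which encodes PD-L1, rose by 1.96 ± 0.26 and the costimulator Cd40 by 2.40 ± 0.26.

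The deepest fall was that of Cdkn1c, which encodes the cyclin-dependent kinase inhibitor p57. It had 7.20, 7.18, 7.18 and 7.78 on the FA+LPS arrays, against 12.81, 12.55 and 12.88 on the Unstim arrays. FA+LPS replicate 4 was above the other three replicates of its group, yet far below the Unstim arrays, and the difference was -5.41 ± 0.26 (adjusted p = 2.26e-09). Cd93, a receptor of myeloid cells and endothelium, had 7.77, 7.57, 7.10 and 7.21 on the FA+LPS arrays, against 11.22, 11.07 and 10.84 on the Unstim arrays, a difference of -3.63 ± 0.20. Mrc1, the mannose receptor, had 7.55, 7.32, 6.84 and 6.88 on the FA+LPS arrays, against 10.14, 9.94 and 9.83 on the Unstim arrays, a difference of -2.82 ± 0.18. In these genes no FA+LPS array came within 2 log2 units of an Unstim array. Adgre5, the CD97 adhesion receptor, fell by 3.44 ± 0.19, and St6gal1, which adds sialic acid to glycoproteins, by 3.24 ± 0.13. Further large falls were those of Prr33 at -3.22 ± 0.14, Slc46a3, a lysosomal transporter, at -3.10 ± 0.13, the kinase Matk at -2.96 ± 0.14, Gask1b at -2.92 ± 0.10 and Fbxo32, a ubiquitin ligase subunit, at -2.63 ± 0.30. Ephx1, an epoxide hydrolase, differed by -2.60 ± 0.18, the kinase Aatk by -2.56 ± 0.14 and Tenm4, a teneurin, by -2.48 ± 0.15.

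**Figure D3:**
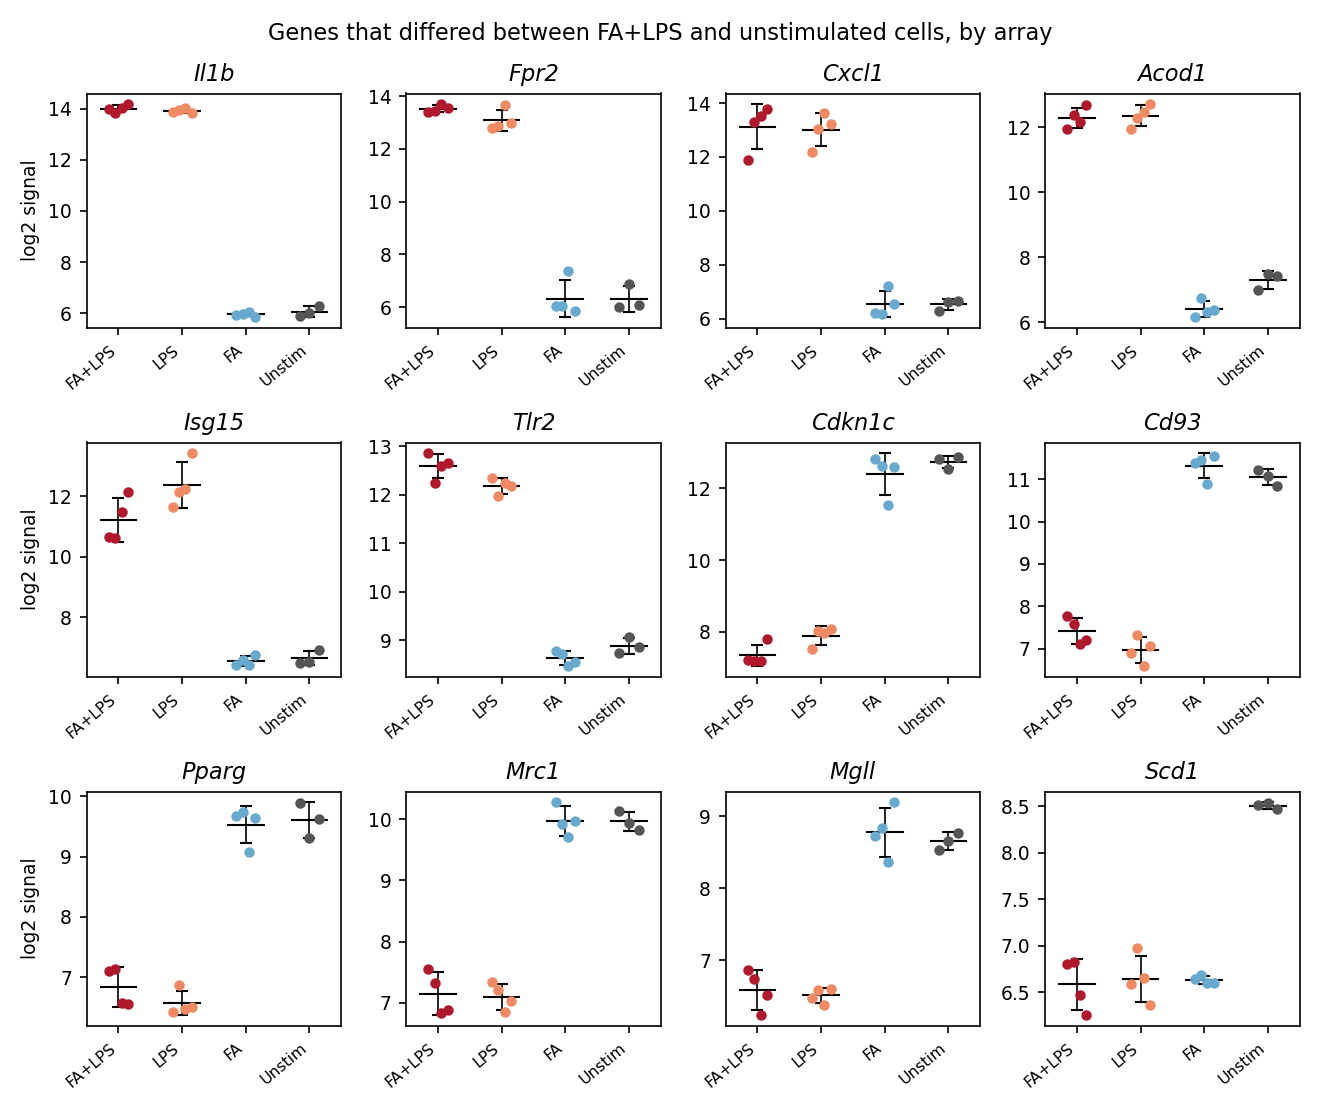
Log2 signal of 12 genes on every array, with FA+LPS leftmost and Unstim rightmost in each panel. Points are arrays, the horizontal line is the group mean and the bar is 1 SD (n = 4 for FA+LPS, LPS and FA, n = 3 for Unstim). Il1b lies at 13.81 to 14.17 in FA+LPS cells and 5.89 to 6.30 in Unstim cells, and Cdkn1c at 7.18 to 7.78 in FA+LPS cells and 12.55 to 12.88 in Unstim cells.

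Scavenger, phagocytic and alternative activation genes were divided. Of 29, 5 rose and 8 fell, with a median of -0.07. Trem2, a lipid-sensing receptor, fell by 2.39 ± 0.17 and Gas6, the ligand that bridges dying cells to TAM receptors, by 2.06 ± 0.12. The TAM receptors moved apart, Mertk by -1.14 ± 0.13 and Axl by 2.48 ± 0.36. The FA+LPS levels of Axl were 10.13 to 12.07 and the Unstim levels 8.42 to 8.66, so the groups did not overlap. A dimmer probe of Axl differed by only 0.15 and was not called. Msr1, scavenger receptor A, rose by 1.04 ± 0.20 and Clec4n, dectin-2, by 1.75 ± 0.36. Under median scaling 3 members rose and 4 fell. The calls of Mertk and Msr1 were lost under median scaling (adjusted p = 0.126 and 0.0696).

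Genes that release fatty acid from stored lipid were mostly lower. Of the 8 tested lipolysis genes, 5 fell and 1 rose, with a median of -0.53. Per-array medians ran from -0.67 to -0.38 on FA+LPS arrays and were lower on LPS arrays, from -0.83 to -0.70. This contrast was not tested. Mgll, monoacylglycerol lipase, had 6.87, 6.74, 6.24 and 6.52 on the FA+LPS arrays, against 8.53, 8.66 and 8.78 on the Unstim arrays. All 4 FA+LPS arrays were more than 1.5 log2 units below the lowest Unstim array, and the difference was -2.06 ± 0.17 (adjusted p = 5.11e-07). Daglb, a diacylglycerol lipase, had 8.90, 9.26, 8.82 and 9.05 on the FA+LPS arrays, against 11.87, 12.06 and 12.10 on the Unstim arrays, a difference of -3.0 ± 0.13. Lipa, lysosomal acid lipase, had 10.09, 9.31, 8.42 and 8.81 on the FA+LPS arrays, against 11.68, 11.19 and 10.65 on the Unstim arrays. Its groups did not overlap, FA+LPS replicate 1 was the highest of its group and Unstim replicate 4 the lowest of its own, and the difference was -2.02 ± 0.43 (adjusted p = 0.00318, and 0.157 under median scaling).

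The cytosolic triglyceride lipase Pnpla2 (ATGL) had 9.78, 10.38, 10.65 and 10.34 on the FA+LPS arrays, against 10.69, 10.82 and 11.11 on the Unstim arrays. All FA+LPS arrays were below all Unstim arrays, the nearest of them only just, and the difference of -0.59 ± 0.19 was barely called (adjusted p = 0.046). It was not called without any of the arrays other than FA+LPS replicate 3, with adjusted p-values of 0.0554 to 0.208. Abhd5, its coactivator CGI-58, differed by -0.48 ± 0.12 (adjusted p = 0.0109, and 0.0558 without Unstim replicate 3). Without Unstim replicate 3 the list held 3 falls, and under median scaling 2, Mgll and Daglb. The hormone-sensitive lipase Lipe and the ATGL inhibitor G0s2 were not called, at 0.07 ± 0.06 (95% interval -0.06 to 0.21) and -0.06 ± 0.08 (-0.23 to 0.11), both close to background. Hilpda, a droplet protein that inhibits ATGL, was the 1 member that rose, with 10.87, 11.68, 11.59 and 11.80 on the FA+LPS arrays, against 9.79, 9.64 and 9.66 on the Unstim arrays, a difference of 1.79 ± 0.33 (adjusted p = 0.00114).

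Lipid droplet proteins had a median difference of -0.03. Of 14, 1 rose (7.14%) and 4 fell (28.6%), against 7.56% and 10.7% of all genes tested. Plin2, the main perilipin of macrophage droplets, had 9.03, 10.39, 9.91 and 9.68 on the FA+LPS arrays, against 9.59, 9.84 and 9.67 on the Unstim arrays. The Unstim arrays lay inside the range of the FA+LPS arrays, and the difference of 0.05 ± 0.25 was not called (95% interval -0.47 to 0.58). Plin3, another perilipin, averaged 7.93 ± 0.43 in FA+LPS cells (SD, n = 4) and 8.86 ± 0.30 in Unstim cells (SD, n = 3) and fell by 0.93 ± 0.26. That call was lost without FA+LPS replicate 1 or 3 or Unstim replicate 3 or 4 (adjusted p = 0.0588 to 0.0945). Bscl2, seipin, which organises droplet budding, averaged 11.30 ± 0.11 in FA+LPS cells (SD, n = 4) and 11.65 ± 0.04 in Unstim cells (SD, n = 3), a difference of -0.35 ± 0.09 that reversed to 0.05 under median scaling. Spg20, spartin, a droplet-associated protein, fell by 0.54 ± 0.10, and Fitm2, which partitions triglyceride into droplets, rose by 0.35 ± 0.09. The falls numbered 2 without Unstim replicate 3, Unstim replicate 4 or FA+LPS replicate 3. Under median scaling 1 member fell and none rose, and the calls of Plin3 and Fitm2 were lost (adjusted p = 0.46 and 0.157).

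Fatty acid uptake and binding genes were divided by member. Of 12, 4 rose and 3 fell, with a median of 0.20. Cav1, caveolin-1, had 9.57, 9.91, 9.91 and 9.83 on the FA+LPS arrays, against 6.74, 7.0 and 7.07 on the Unstim arrays. Every FA+LPS array was far above every Unstim array, and the difference was 2.87 ± 0.21 (adjusted p = 1.71e-07). Fabp3, a fatty acid-binding protein, rose by 1.65 ± 0.21, while its relative Fabp5 fell by 1.64 ± 0.21. A dimmer probe of Fabp5 differed by -0.16 and was not called. Fabp4 was not above background on any FA+LPS array, and was at least 1.10-fold lower there than in Unstim cells (measured difference -0.28 ± 0.06, adjusted p = 0.00644). Cd36, a fatty acid translocase, averaged 6.60 ± 0.09 in FA+LPS cells (SD, n = 4) and 7.18 ± 0.10 in Unstim cells (SD, n = 3), a difference of -0.57 ± 0.11. Angptl4, a secreted inhibitor of lipoprotein lipase, had 7.38, 9.71, 9.59 and 8.17 on the FA+LPS arrays, against 6.40, 6.39 and 6.22 on the Unstim arrays. FA+LPS replicates 2 and 3 were the highest, and the difference of 2.37 ± 0.62 (adjusted p = 0.0134) was not called without Unstim replicate 4 (adjusted p = 0.0515) nor by a dimmer probe, which differed by 0.09. Under median scaling 3 members rose and 2 fell, and Cd36 was not called (adjusted p = 0.289). Lpl, lipoprotein lipase, was not called, at 0.16 ± 0.25 (95% interval -0.37 to 0.69).

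Esterification genes gave 2 rises and 2 falls among 21, with a median of 0.02. Each count was 9.52% of the list, against 7.56% higher and 10.7% lower over all genes tested. Acsl5, an acyl-CoA synthetase, averaged 11.90 ± 0.26 in FA+LPS cells (SD, n = 4) and 11.17 ± 0.11 in Unstim cells (SD, n = 3), a rise of 0.73 ± 0.14. Lpin1, the phosphatidate phosphatase lipin 1, had 6.46, 6.44, 6.33 and 6.15 on the FA+LPS arrays, against 8.12, 8.01 and 8.06 on the Unstim arrays, and fell by 1.72 ± 0.11 (adjusted p = 5.5e-08). Dgat1 and Gpat3, enzymes of the last and the first step of triglyceride synthesis, were not called, at 0.16 ± 0.10 (95% interval -0.06 to 0.38) and 0.02 ± 0.09 (-0.18 to 0.22). Dgat2 was not above background on any Unstim array and was at least 1.15-fold higher in FA+LPS cells, a call lost without FA+LPS replicate 1 or Unstim replicate 1 or 4 (adjusted p = 0.0621 to 0.128). The rises numbered 4 without FA+LPS replicate 4 and 1 without Unstim replicate 1 or 4, and 1 gene fell without Unstim replicate 1 or 3 or FA+LPS replicate 2, 3 or 4, when Acsl3 was not called. Under median scaling 1 gene rose and 1 fell, and Dgat2 was not called (adjusted p = 0.144).

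Fatty acid synthesis and desaturation genes fell where they were called. Scd1, stearoyl-CoA desaturase, had 6.80, 6.82, 6.47 and 6.25 on the FA+LPS arrays, against 8.52, 8.54 and 8.47 on the Unstim arrays, a difference of -1.92 ± 0.14 (adjusted p = 1.52e-07). The FA arrays were as low, with a mean of 6.63 ± 0.04 (SD, n = 4), and so were the LPS arrays, with a mean of 6.65 ± 0.25 (SD, n = 4). Fads1, a polyunsaturated fatty acid desaturase, and Elovl5, an elongase, fell by 0.91 ± 0.22 and 0.88 ± 0.19. In all 3 of 13 fell, with a median of -0.30, against 6 with experiment as a block and 7 without FA+LPS replicate 1. Srebf1, the regulator of this pathway, was not called, at -0.10 ± 0.11 (95% interval -0.34 to 0.13). Under median scaling Scd1 alone was called.

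Fatty acid oxidation genes were called in both directions. Of 31 genes, 4 rose (12.9%) and 5 fell (16.1%), against 7.56% and 10.7% of all genes tested. The median was -0.03. Slc25a20, the carnitine-acylcarnitine carrier of the inner mitochondrial membrane, had 8.87, 9.27, 9.25 and 9.09 on the FA+LPS arrays, against 8.57, 8.40 and 8.45 on the Unstim arrays, a difference of 0.64 ± 0.13 (adjusted p = 0.00284). Eci1, which isomerises unsaturated acyl-CoA, rose by 0.57 ± 0.11 and Acaa1a, the peroxisomal thiolase, by 0.68 ± 0.13. Hsd17b4, the peroxisomal multifunctional enzyme, had 9.79, 9.88, 9.68 and 9.59 on the FA+LPS arrays, against 10.54, 10.66 and 10.59 on the Unstim arrays, a difference of -0.86 ± 0.07. Cpt1a, the entry step into the mitochondrion, was above background on no FA+LPS array and on 2 of the Unstim arrays. The falls numbered 8 with experiment as a block and 1, Hsd17b4, without Unstim replicate 4. No member was called under median scaling.

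Sterol synthesis and uptake genes were largely uncalled, with 1 fall and no rise among 18 and a median of -0.01. The fall was 5.56% of the list, against 10.7% lower over all genes tested. The fall was that of Sc5d, a late enzyme of cholesterol synthesis, at -0.29 ± 0.07. Sc5d was not called in the 3 experiment pairs alone (limma, adjusted p = 0.0679). The count was 3 falls and 1 rise with experiment as a block, and 2 genes rose without FA+LPS replicate 4. Sterol efflux and LXR-responsive genes included 6 falls and 3 rises among 19, with a median of -0.10. Cyp27a1, which makes a cholesterol-derived LXR ligand, had 6.54, 6.32, 6.18 and 6.07 on the FA+LPS arrays, against 8.33, 8.31 and 8.56 on the Unstim arrays, a difference of -2.12 ± 0.10 (adjusted p = 3.16e-09). Nceh1, a cholesteryl ester hydrolase, fell by 2.38 ± 0.15, and Apoe, apolipoprotein E, by 1.63 ± 0.22. Ch25h, cholesterol 25-hydroxylase, rose by 2.66 ± 0.54, with FA+LPS levels of 7.06 to 10.12 against 5.92 to 6.06 in Unstim cells, 2 of which were above background. Under median scaling 2 members fell and 2 rose, and Apoe was not called (adjusted p = 0.128). Abca1, a cholesterol exporter, was not called, at 0.14 ± 0.07 (95% interval 0.00 to 0.28), and neither was Abcg1, its partner in efflux, at -0.55 ± 0.21. With experiment as a block Abcg1 was called, at -0.56 (adjusted p = 0.0284).

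Of the lipid-sensing nuclear receptors, 1 rose (6.67%) and 2 fell (13.3%) among 15, against 7.56% and 10.7% of all genes tested. Their median was 0.05. Pparg had 7.11, 7.13, 6.57 and 6.55 on the FA+LPS arrays, against 9.89, 9.30 and 9.62 on the Unstim arrays. Each FA+LPS array was more than 2 log2 units below each Unstim array, and the difference was -2.76 ± 0.20 (adjusted p = 1.22e-07). Nr1h3, which encodes LXR-alpha, fell by 0.97 ± 0.12, and Ppard, PPAR-delta, rose by 0.76 ± 0.16. Both of these calls were lost under median scaling (adjusted p = 0.423 and 0.115), and with experiment as a block 2 members rose. Dimmer probes of Nr1h3 and Ppard differed by -0.21 and -0.07 and were not called. A dimmer probe of Pparg differed by -0.75 and was called lower, and another, at 0.07, was not called. Among 22 PPAR-responsive genes 3 rose (13.6%) and 4 fell (18.2%), against the same 7.56% and 10.7% of all genes tested. The rises were Angptl4, Hilpda and Slc25a20, and the falls included Tsc22d3, a glucocorticoid-induced regulator, at -1.91 ± 0.20. Under median scaling 2 rose and 2 fell. A dimmer probe of Tsc22d3 differed by -1.28 and was called lower, and another, at -0.27, was not called. Pdk4, a kinase that limits glucose oxidation, was not called, at 0.19 ± 0.11 (95% interval -0.06 to 0.43).

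**Figure D4:**
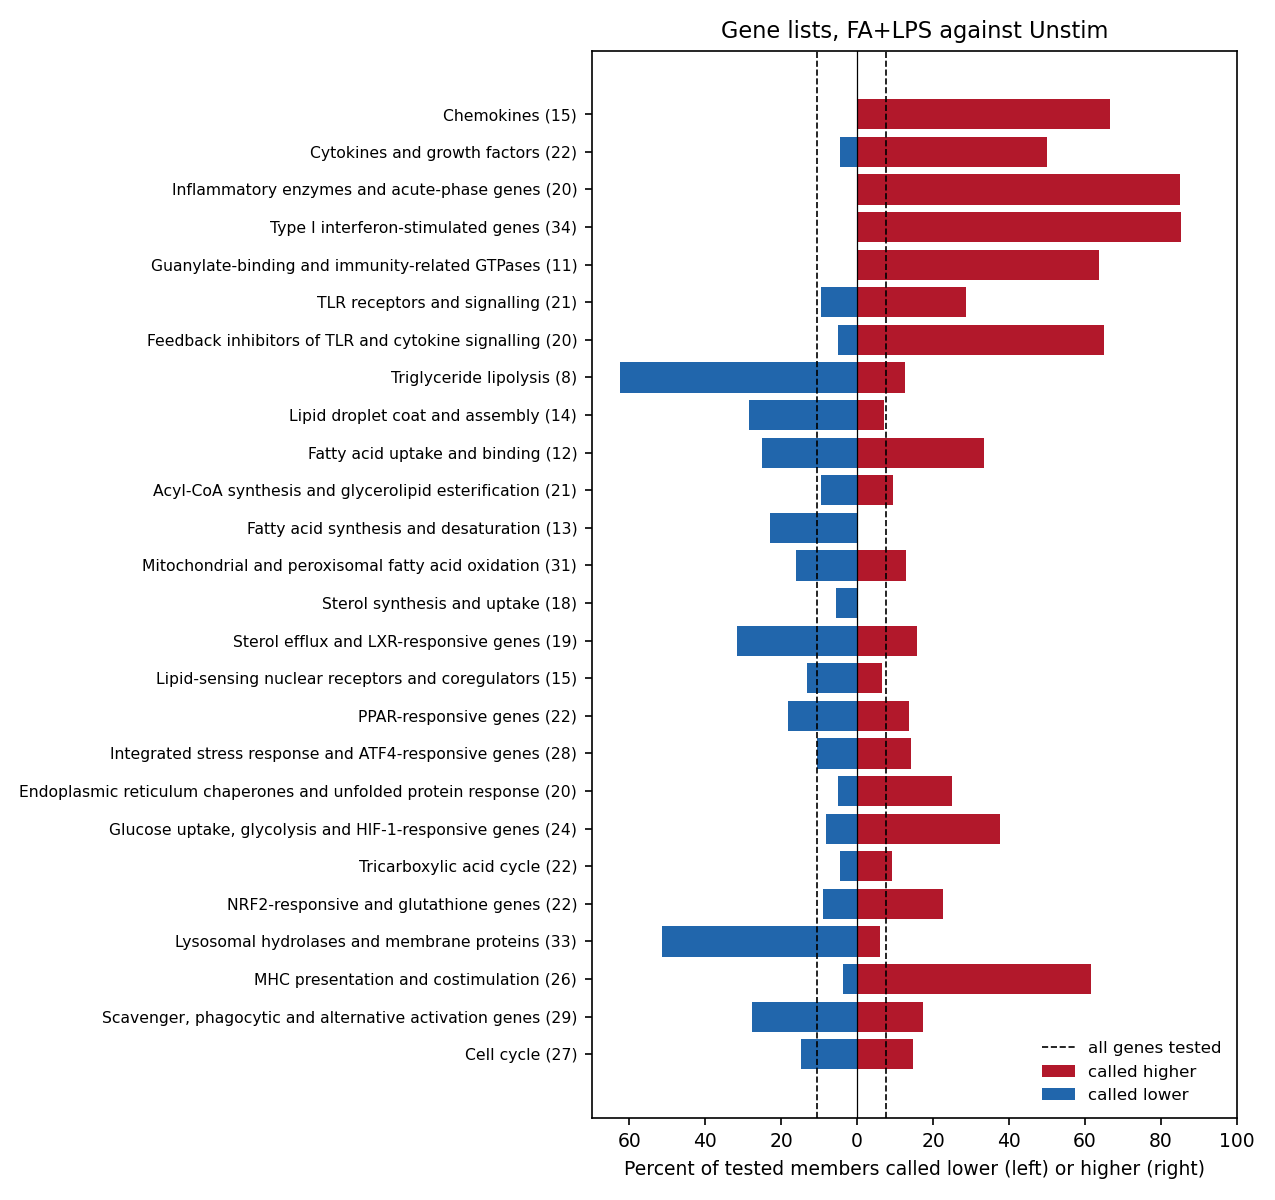
Bars give the percent of tested members, for each list that is not a cell type marker list, called higher (right) and lower (left) in FA+LPS cells relative to Unstim cells, with the number tested in parentheses. Dashed lines mark the share of all 12984 genes, 7.56% higher and 10.7% lower. Among the lists drawn, interferon-stimulated genes and inflammatory enzymes reach furthest to the right, at 85.3% and 85%, and lipolysis genes furthest to the left, at 62.5% of 8.

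Lysosomal genes were lower as a list. Of 33, 17 fell and 2 rose, with a median of -0.44, and the per-array medians of the 4 FA+LPS arrays ran only from -0.47 to -0.41. On the LPS arrays these medians were lower still, from -0.81 to -0.52, a contrast that was not tested. Man2b1, lysosomal alpha-mannosidase, had 10.58, 10.92, 10.83 and 11.13 on the FA+LPS arrays, against 12.23, 12.43 and 12.64 on the Unstim arrays, a difference of -1.57 ± 0.14. Pla2g15, lysosomal phospholipase A2, had 9.84, 9.70, 9.90 and 10.02 on the FA+LPS arrays, against 11.36, 11.40 and 11.54 on the Unstim arrays, a difference of -1.57 ± 0.09 (adjusted p = 8.76e-09). Ctsa, cathepsin A, fell by 1.30 ± 0.31. The 2 that rose, Ctsz, cathepsin Z, and Npc2, a lysosomal sterol carrier, rose by 0.75 ± 0.22 and 0.58 ± 0.18. Neither was called without Unstim replicate 3 (adjusted p = 0.0918 and 0.152). The falls numbered 12 to 17 with 1 array left out. Under median scaling 3 genes fell, Slc46a3 and Pla2g15 among them, and the calls of Lipa, Man2b1 and Ctsa were lost.

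Glucose uptake, glycolysis and HIF-1-responsive genes leaned upward. Of 24, 9 rose and 2 fell, with a median of 0.37. Ldha, lactate dehydrogenase A, had 12.76, 12.04, 12.30 and 12.12 on the FA+LPS arrays, against 11.25, 11.31 and 11.34 on the Unstim arrays, a difference of 1.00 ± 0.18. Pgk1 and Pfkl, glycolytic enzymes, rose by 1.00 ± 0.11 and 1.38 ± 0.15, and Slc2a1, the glucose transporter GLUT1, by 1.11 ± 0.22. For Pfkl a dimmer probe differed by 0.04 and was not called. The 2 falls were Vegfa and Hk3, a hexokinase, at -0.67 ± 0.18. No member fell without Unstim replicate 4, and the rises numbered 14 with experiment as a block. In the tricarboxylic acid cycle list, which also holds cytosolic enzymes, 2 genes rose and 1 fell among 22, with a median of 0.00. These counts were 9.09% and 4.55% of the list, against 7.56% higher and 10.7% lower over all genes tested. The fall was that of Idh1, cytosolic isocitrate dehydrogenase, with 8.59, 8.85, 9.07 and 7.86 on the FA+LPS arrays, against 10.53, 10.27 and 10.29 on the Unstim arrays, a difference of -1.77 ± 0.22 (adjusted p = 3.27e-05). The rises, Sdhd at 0.38 ± 0.10 and Mdh2 at 0.52 ± 0.17, were lost without Unstim replicate 3 (adjusted p = 0.0761 and 0.0843), and with experiment as a block 3 genes fell. Under median scaling 6 genes of the glucose list rose and none fell, and Idh1 was the 1 gene of the cycle list called.

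Among 22 NRF2-responsive and glutathione genes 5 rose and 2 fell, with a median of 0.18. These counts were 22.7% and 9.09% of the list, against 7.56% higher and 10.7% lower over all genes tested. Slc7a11, the cystine importer, had 10.63, 10.36, 10.15 and 9.51 on the FA+LPS arrays, against 7.74, 7.69 and 7.34 on the Unstim arrays, a difference of 2.57 ± 0.28 (adjusted p = 9.79e-06). Blvrb, biliverdin reductase B, rose by 0.82 ± 0.19. Nfe2l2, which encodes NRF2 itself, fell by 1.15 ± 0.27, but a dimmer probe of it differed by 0.03 and was not called. Heme oxygenase Hmox1 rose by 1.19 ± 0.30 and Nqo1, a quinone reductase, by 0.87 ± 0.28. Neither was called without Unstim replicate 3 (adjusted p = 0.0566 and 0.0553) or Unstim replicate 4 (0.0759 and 0.14). Under median scaling Slc7a11 alone of the list was called.

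Of 20 endoplasmic reticulum chaperones and related genes, 5 rose and 1 fell, with a median of 0.13. Pdia4, a disulfide isomerase, rose by 1.5 ± 0.17, Creld2, a secreted chaperone, by 0.95 ± 0.08 and Hspa5 (BiP) by 0.42 ± 0.09. Herpud1, a component of protein degradation at the endoplasmic reticulum, fell by 0.69 ± 0.14. Under median scaling 2 of the 20 rose and none fell, and the calls of Hspa5 and Herpud1 were lost (adjusted p = 0.152 and 0.659). Of 28 genes of the integrated stress response and its factor ATF4, 4 rose and 3 fell, with a median of -0.14. These counts were 14.3% and 10.7% of the list, against 7.56% and 10.7% of all genes tested. Cebpb rose by 1.22 ± 0.15 and Nupr1, a stress-inducible nuclear protein, by 0.99 ± 0.22. Mthfd2, a mitochondrial one-carbon enzyme, had 9.46, 9.47, 9.56 and 9.65 on the FA+LPS arrays, against 10.13, 10.16 and 10.16 on the Unstim arrays, a difference of -0.61 ± 0.11 (adjusted p = 0.00101), and Sars, seryl-tRNA synthetase, fell by 0.47 ± 0.10. Dimmer probes of Mthfd2 and Sars differed by -0.06 and -0.09 and were not called. The falls in this list numbered 5 without FA+LPS replicate 4 and none under median scaling.

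Of 27 cell cycle genes, 4 rose and 4 fell, with a median of -0.03. Each count was 14.8% of the list, against 7.56% higher and 10.7% lower over all genes tested. The falls included the kinase inhibitor Cdkn1c, another cyclin-dependent kinase inhibitor, Cdkn2c, at -0.69 ± 0.10, and Ccnd1, cyclin D1, at -0.78 ± 0.16. Tyms, thymidylate synthase, rose by 0.85 ± 0.09, but dimmer probes of it differed by -0.01 and 0.06 and were not called. The other three rises, Cdkn1a, Bub1b and Mcm6, were lost without Unstim replicate 1 (adjusted p = 0.0606, 0.0639 and 0.0825). Under median scaling 1 member rose and 2 fell, and Ccnd1 was not called (adjusted p = 0.102).

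Macrophage markers were present in both groups. Of 14, 3 rose and 4 fell, and their summed linear signal was 40313 to 54301 on FA+LPS arrays, against 49439 to 51520 on Unstim arrays. Adgre1, a surface antigen of mature macrophages, rose by 2.21 ± 0.16 and Csf1r, the M-CSF receptor, by 1.09 ± 0.23. The complement genes C1qb and C1qc fell by 2.41 ± 0.28 and 2.03 ± 0.29. Neutrophil markers summed to 1549 to 2443 on FA+LPS arrays and 782 to 891 on Unstim arrays, mostly from S100a8, a calcium-binding protein, which rose by 2.20 ± 0.22. Of the 8, Camp was not above background on any Unstim array and was at least 1.21-fold higher in FA+LPS cells (measured difference 0.53 ± 0.09), and Ltf fell by 0.58 ± 0.12. For Ltf a dimmer probe differed by 0.04 and was not called. Mesothelial and fibroblast markers summed to 5799 to 10478 on FA+LPS arrays and 3356 to 3884 on Unstim arrays. Of those 9, Dcn and Pdpn rose, by 2.01 ± 0.23 and 1.07 ± 0.17, and none fell. Dendritic cell markers summed to 709 to 1058 on FA+LPS arrays and 478 to 521 on Unstim arrays, with 1 of 7, Batf3, higher by 2.14 ± 0.28. Il7r, the 1 T and NK cell marker tested, fell by 1.35 ± 0.27, a call lost under median scaling (adjusted p = 0.179), as were 2 of the 4 falls among macrophage markers. Dimmer probes of Il7r at -0.20, -0.28 and -0.11 were not called, and another, at -1.68, was called lower. No marker of eosinophils and mast cells (3 tested) or of B cells (5 tested) was called, but 1 B cell marker was lower with experiment as a block and without Unstim replicate 1 or FA+LPS replicate 1 or 2. The part of other cell types in the results was not tested.

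The FA+LPS against Unstim difference combines fatty acid and LPS, so the levels of named genes were also set against LPS alone. The comparison shares the FA+LPS arrays with the one above. Of 12984 genes, 89 were called (0.685%), 49 higher and 40 lower in FA+LPS cells. With experiment as a block 344 were called, 206 higher and 138 lower. The count was 186 without FA+LPS replicate 4 and 57 without FA+LPS replicate 2, and 31 genes were higher without LPS replicate 4. With slide as a block 166 were called. Under median scaling 6 were called, and of the genes described next Cav1, Aqp9, Edn1 and Slc28a2 kept their calls.

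In this comparison lipid genes were among the higher ones. Plin2 had 9.03, 10.39, 9.91 and 9.68 on the FA+LPS arrays, against 8.01, 8.15, 7.87 and 8.39 on the LPS arrays. Every FA+LPS array was above every LPS array, by 1.65 ± 0.23 (adjusted p = 0.00313). Its level relative to Unstim cells, described above, was thus close to 0, and that of LPS cells relative to Unstim cells was -1.59 ± 0.25. Cav1 exceeded its LPS level by 1.41 ± 0.19 and Slc25a20 by 0.89 ± 0.12. Sort1, sortilin, a receptor that sorts proteins to lysosomes, had 9.34, 10.44, 9.27 and 7.75 on the FA+LPS arrays, against 10.04, 10.23 and 10.17 on the Unstim arrays, and the LPS arrays had 6.79, 7.10, 6.61 and 6.24. FA+LPS replicate 4 was the lowest of its group, yet above every LPS array. FA+LPS cells exceeded LPS cells by 2.51 ± 0.39 (adjusted p = 0.00657), and their difference from Unstim cells, -0.95 ± 0.42, was called only with experiment as a block, at -1.11 (adjusted p = 0.0338), in the 3 experiment pairs alone, and without FA+LPS replicate 2. Angptl4 and Hilpda exceeded their LPS levels by 2.66 ± 0.57 and 1.30 ± 0.31, and missed the threshold. With experiment as a block both were called (adjusted p = 0.013 and 0.0131), as they were with a smaller background offset and without FA+LPS replicate 1. Angptl4 was also called with slide as a block, in the deposited table, without FA+LPS replicate 4 and without the low-signal FA array.

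Smaller excesses over LPS cells were found for Hsd17b4, by 0.60 ± 0.07, Bscl2, by 0.57 ± 0.08, and Eci2, an enoyl-CoA isomerase, by 0.58 ± 0.09. Hsd17b7, an enzyme of sterol synthesis, exceeded its LPS level by 1.27 ± 0.20 and was not called against Unstim cells, at 0.43 ± 0.22. Man2a1, a Golgi mannosidase, had 9.83, 10.81, 10.95 and 11.04 on the FA+LPS arrays, against 9.52, 9.76 and 9.62 on the Unstim arrays, and 8.98, 9.29, 9.33 and 9.80 on the LPS arrays. It was above both, by 1.02 ± 0.24 over Unstim cells and 1.31 ± 0.22 over LPS cells. Pf4, platelet factor 4, was likewise above both, by 2.88 ± 0.21 and 1.29 ± 0.20, while Klf7, a transcription factor, differed by -0.06 ± 0.20 from Unstim cells and by 1.14 ± 0.18 from LPS cells.

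Several stress-response genes were lower than in LPS cells. Of the 28 genes of the integrated stress response list, 8 were called lower, against 0.308% of all genes, and none higher, with a median of -0.50. The list was chosen with earlier results of these data known, so the count is a description only. Trib3, a pseudokinase induced by ATF4, had 7.04, 7.19, 7.17 and 8.28 on the FA+LPS arrays, against 8.06, 7.96 and 8.28 on the Unstim arrays, and 8.82, 9.11, 9.36 and 9.07 on the LPS arrays. It was below LPS cells by 1.67 ± 0.22 (adjusted p = 0.00227). Its difference from Unstim cells, -0.68 ± 0.24, was not called (adjusted p = 0.0606) except with experiment as a block, at -0.64 (adjusted p = 0.0265), without FA+LPS replicate 4, and under several other settings. Asns, asparagine synthetase, had 8.22, 8.47, 7.97 and 9.02 on the FA+LPS arrays, against 8.89, 9.11 and 8.85 on the Unstim arrays, and 9.63, 9.76, 9.52 and 9.58 on the LPS arrays, a difference of -1.20 ± 0.18 (adjusted p = 0.00458). Against Unstim cells its difference of -0.52 ± 0.19 had a 95% interval of -0.93 to -0.11, and was called with slide as a block and without FA+LPS replicate 4. Ddit3, which encodes CHOP, had 8.67, 7.78, 9.40 and 9.94 on the FA+LPS arrays, against 9.50, 9.19 and 9.51 on the Unstim arrays, and 10.96, 10.17, 10.82 and 11.19 on the LPS arrays. FA+LPS cells differed by -1.84 ± 0.35 from LPS cells (adjusted p = 0.0226) and by -0.45 ± 0.38 from Unstim cells (95% interval -1.26 to 0.35). The call against LPS cells was lost in 4 of the fits that left out 1 array, with adjusted p-values of 0.0503 to 0.0772. Mthfd2 was below both, by 0.89 ± 0.10 against LPS cells. Gtpbp2, a GTP-binding protein linked to ribosome rescue, was below both too, by 1.34 ± 0.15 against LPS cells and 0.70 ± 0.16 against Unstim cells. Under median scaling neither Mthfd2 nor Gtpbp2 was called against Unstim cells (adjusted p = 0.792 and 0.744).

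Some LPS-raised genes lay between the Unstim and LPS levels. Aqp9, a channel for glycerol and water, had 7.82, 7.52, 7.59 and 8.14 on the FA+LPS arrays, against 6.91, 6.76 and 7.20 on the Unstim arrays, and 9.80, 9.40, 9.46 and 9.37 on the LPS arrays. The FA+LPS arrays formed an intermediate band that overlapped neither group, 0.81 ± 0.15 above Unstim cells and 1.74 ± 0.14 below LPS cells (adjusted p = 6.35e-05). Edn1, the vasoconstrictor endothelin-1, had 6.70, 6.20, 6.56 and 7.55 on the FA+LPS arrays, against 5.94, 6.08 and 6.05 on the Unstim arrays, and 8.84, 8.72, 8.36 and 9.25 on the LPS arrays. It was 2.04 ± 0.23 below LPS cells (adjusted p = 0.000612), and its excess over Unstim cells, 0.73 ± 0.24, missed the threshold (adjusted p = 0.0518) and passed it with experiment as a block, at 0.80 (adjusted p = 0.0136). Sqstm1, the autophagy receptor p62, was likewise between, 0.57 ± 0.10 above Unstim cells (adjusted p = 0.0661 under median scaling) and 0.73 ± 0.09 below LPS cells. Slc28a2, a nucleoside transporter, was 1.43 ± 0.22 below LPS cells, and its difference from Unstim cells was 0.42 ± 0.24, called with experiment as a block (adjusted p = 0.0346). The near-identical copy Slc28a2b could share signal with it and gave -1.38 ± 0.28.

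**Figure D5:**
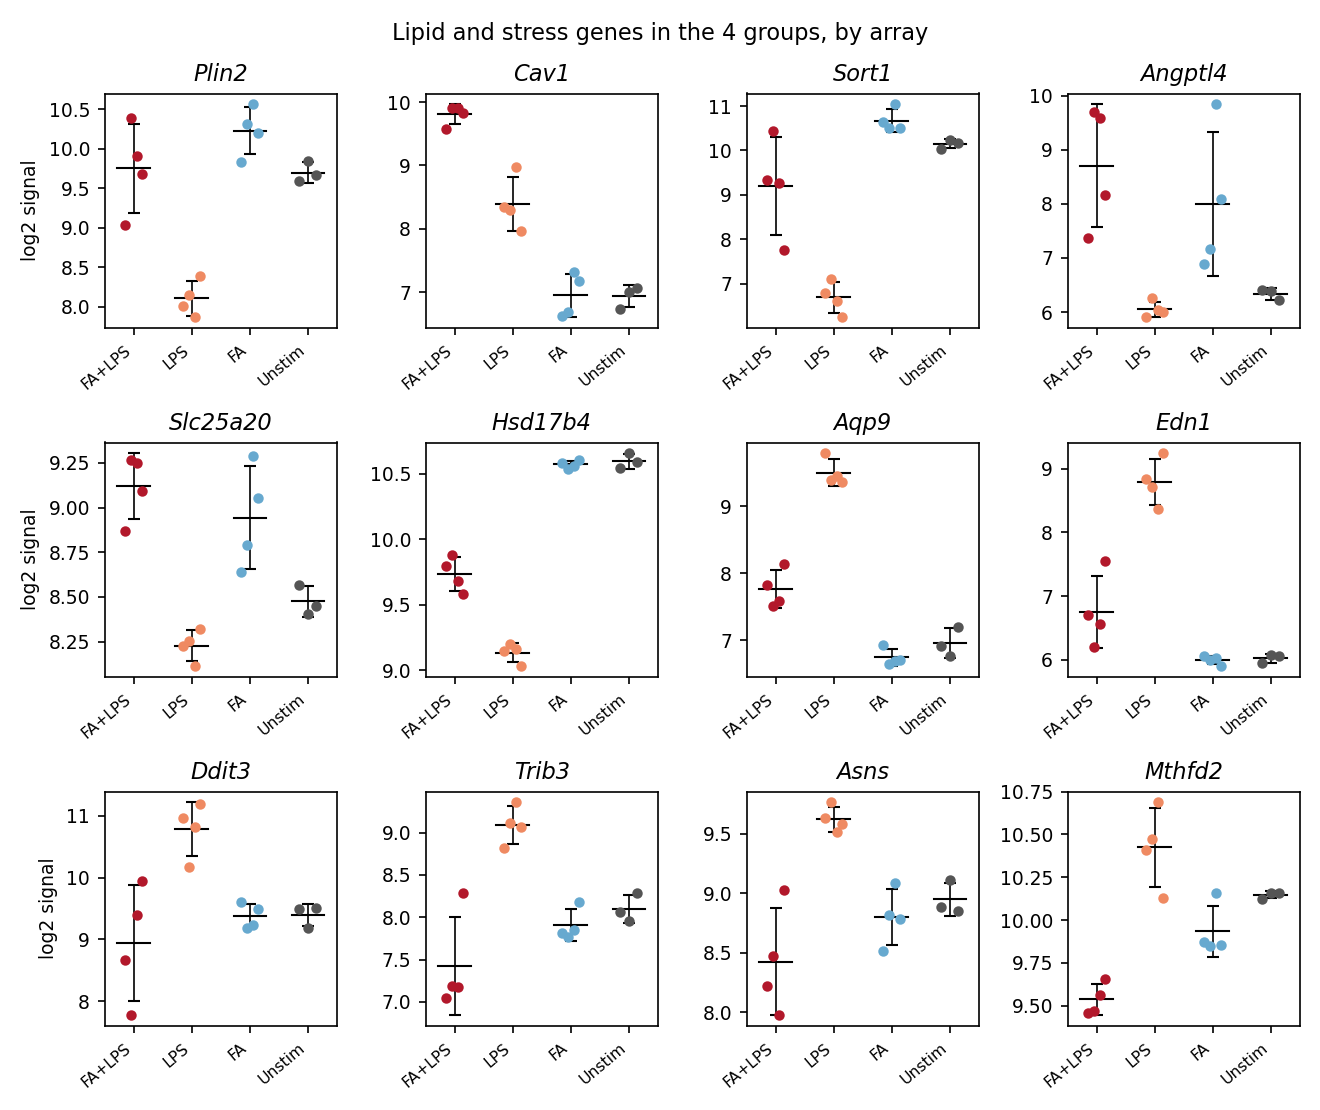
Log2 signal of 12 lipid, stress and transport genes on every array, with FA+LPS leftmost and Unstim rightmost. Points are arrays, the line is the group mean and the bar 1 SD (n = 4, and n = 3 for Unstim). Plin2 lies at 9.03 to 10.39 in FA+LPS cells, against 7.87 to 8.39 in LPS cells, and Trib3 at 7.04 to 8.28 in FA+LPS cells, against 8.82 to 9.36 in LPS cells.

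The 15 genes with the largest rises against Unstim cells were not called against LPS cells, with intervals that differed from gene to gene. Il1b differed by 0.09 ± 0.09 (95% interval -0.11 to 0.29), and was near the upper end of the scale in both groups, where a difference is hard to measure. Cxcl1 differed by 0.11 ± 0.38 (-0.70 to 0.92) and Acod1 by -0.06 ± 0.19 (-0.46 to 0.34). Ccl5 was at -0.26 ± 0.12 (-0.52 to -0.01), and was called lower without FA+LPS replicate 4 (adjusted p = 0.0383). Tlr2, Tnf, Il12a and Hp lay outside these 15 genes, with smaller rises against Unstim cells. Against LPS cells Tlr2 was at 0.41 ± 0.12 (0.14 to 0.67). Tnf was at -0.63 ± 0.20 (-1.05 to -0.21; adjusted p = 0.191) and Il12a at -0.50 ± 0.16 (-0.85 to -0.15; adjusted p = 0.214). Hp was at 1.67 ± 0.67 (0.24 to 3.11), and was called higher with experiment as a block (adjusted p = 0.00725). Among the large falls, Cdkn1c differed from LPS cells by -0.55 (-1.06 to -0.04), Cd93 by 0.45 (0.06 to 0.85) and Mrc1 by 0.04 (-0.31 to 0.40). Pparg differed by 0.27 (-0.12 to 0.65) and Mgll by 0.08 (-0.25 to 0.42).

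The median of the 22 cytokines and growth factors, relative to Unstim, was 0.70, 0.54, 0.93 and 0.98 on FA+LPS replicates 1 to 4, against 1.17, 0.90, 1.37 and 1.49 on the LPS arrays. For the 15 chemokines it was 2.74, 2.59, 3.25 and 3.52 on FA+LPS replicates 1 to 4, against 2.88, 3.05, 3.40 and 3.69 on the LPS arrays. Both medians were lower on the FA+LPS array in each of the 4 experiments, and neither was tested. Interferon genes had wider intervals. Isg15 was at -1.15 ± 0.35 (-1.90 to -0.39) and Ifit3 at -1.27 ± 0.43 (-2.19 to -0.35), both uncalled, and both called lower with experiment as a block (adjusted p = 0.0182 and 0.0433). The costimulator Cd40 was at -1.12 ± 0.24, and called with the block (adjusted p = 0.00241).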

How the data were processed

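Illumina bead-array signals were used as the authors deposited them. The signal file holds log2 values for 45281 probes on each array, not normalized between arrays, and the value table deposited with it holds 25784 of these probes on the log2 scale. The table equals a quantile normalization of the log2 signals of those probes to within 0.000949. How the scanner's readings became these values is not stated in the labels, and the tool was not given in the sources used here.

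From the signals, linear values were corrected by normexp (offset 50) and quantile-normalized over all probes with limma 3.58.1 in R 4.3.3. Background on an array was the 95th percentile of probes outside the deposited table. Probes in that table and above background on at least 3 arrays were kept, 24195 in all, and the brightest probe stood for each of 12984 genes, named through the GEO platform annotation updated to RefSeq symbols. Among the probes of the table, 21476 had 1 symbol, 10 several and 4298 none. The offset compresses differences of dim genes. Of 124 further probes of named genes that were called, 53 were not called and none was called the other way. The text above cites such probes for some of these genes only. A linear model on the 4 groups (all 15 arrays, moderated variance, 11 residual degrees of freedom) gave each difference, and p-values were adjusted by Benjamini-Hochberg over all genes. Detection above background, not read depth, limits the precision of these arrays.

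In simulated data on 12984 genes, the FA+LPS against Unstim fit recovered 71.6% of 1.5-fold, 94% of 2-fold and 100% of 4-fold changes, with 4.32% false calls. Arrays were grouped by their titles. Experiment numbers pair the arrays, since the design text states independent experiments. Deviations from group means of same-experiment arrays correlated at a median of 0.222 over 21 pairs, with a range of 0.0438 to 0.805. Over 63 pairs of different experiments the median was -0.0745, with a range of -0.518 to 0.182. For FA+LPS with Unstim the correlations were 0.17, 0.05 and 0.12 in experiments 1, 3 and 4. The main fit held no term for experiment. Against LPS it called 89 genes, and 344 were called with experiment as a block.

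Named genes were the 15 largest rises and falls called and non-overlapping, the 8 largest in each direction against LPS, up to 5 rises and 5 falls per list by size, and 48 fixed genes, 44 of which were tested. Of 671 genes in 33 lists, 559 passed the filter. The members and lists were chosen with earlier results of these data known. Alternatives were a replicate block, pairs alone, the 7 arrays alone, slide, scaling, the deposited table, the offset, the filters, the probe rule and leaving out each array. Leaving out FA replicate 1 was chosen after seeing the data.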

Additional observations from a re-analysis of the deposited data

Results flagged for a closer look

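On 5 of the 196 named genes, 1 of the 4 FA+LPS arrays stood apart from its group by Dixon's criterion, which chance meets in about 1 in 20 groups. Acox3, a peroxisomal acyl-CoA oxidase, was at 8.83 on FA+LPS replicate 1, against 7.77 to 7.94 on the other arrays of its group. Its fall against Unstim cells, -0.93 ± 0.28, was called (limma, adjusted p = 0.033) and was not called in 6 of the 7 fits that left out 1 array. Eci2 was at 6.80 on FA+LPS replicate 3, against 7.13 to 7.18. The others were on FA+LPS replicate 4. Cdkn1c was at 7.78, against 7.18 to 7.20 on the other arrays of its group. S100a8 was at 9.94, against 10.75 to 10.90, and Trib3 at 8.28, against 7.04 to 7.19.

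Of the 196 named genes, 3 were flagged because the effect of fatty acid with LPS differed from its effect without LPS (interaction term, limma, adjusted over all genes). The count over all genes is not given here. Aqp9 had an interaction of -1.52 (adjusted p = 0.0197), with FA+LPS 1.74 below LPS and FA -0.22 ± 0.15 relative to Unstim. Hsd17b4 had an interaction of 0.62 (adjusted p = 0.0436). Scd1 had the largest of these 3, 1.82 (adjusted p = 0.00173). FA+LPS and LPS cells differed in Scd1 by -0.06 ± 0.13, while FA cells were -1.88 ± 0.14 relative to Unstim cells.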

How the results depend on the processing

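Quantile normalization against median scaling was the choice that moved the results most. Under median scaling 764 genes were called against Unstim, 493 higher and 271 lower, 105 of the 173 named calls remained, and list genes called numbered 141, against 240. Bscl2 changed sign to 0.050 and Gars to 0.13, and 6 genes were called against LPS, 2 higher and 4 lower. The cause was not tested. With experiment as a replicate block, 2969 genes were called against Unstim and 344 against LPS, 206 higher and 138 lower. The pairing changed no other call of a named gene against Unstim than those of Cxcl10, Edn1, Sort1, Trib3, Abcg1, Slc28a2 and Ldah (adjusted p = 0.0534, no longer called). With slide as a block, 2518 were called against Unstim and 166 against LPS, 97 higher and 69 lower. In fits that left out 1 array, 1827 to 2283 genes were called against Unstim, fewest without Unstim replicate 4. Against LPS these fits called 57 to 186, with 31 to 101 higher and 26 to 85 lower. The highest counts came without FA+LPS replicate 4 and the lowest without FA+LPS replicate 2. Without LPS replicate 4, 31 were higher. The other alternatives, which were the 3 pairs alone, the 7 arrays alone, the deposited table, offset 16, the filters, the mean of probes and leaving out the low-signal FA array, gave 2056 to 2437 calls against Unstim. Against LPS, those of them that were run gave 89 to 102. Genes whose Unstim arrays were all below background, 56 of those called higher, have differences that are limited by the background.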
